A study of Mus musculus with 3 samples.

Results

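C2, named cycling effector #1 in the study, was a cluster of CD8+ T cells labelled by RNA of Pclaf and Mki67 and by a low level of Cd226. It was examined here in the spleens of mice with acute graft-versus-host disease (GVHD). Mki67 alone did not set C2 apart, since it was above the other CD8+ cells in 6 of 9 pools. The cells of C2 were the rows of 1 cluster value in the deposited table of cells, the value whose cell numbers per treatment group equalled those of C2 in the study. No expression value was used in this matching, but the clusters themselves had been drawn on the same RNA. There were 2494 such cells, which were 23.02% of the 10833 CD8+ cells and part of the 21204 CD4+ and CD8+ cells in the series. Saline recipients gave 796 C2 cells, recipients of cyclosporin A (CSA) at 5 mg/kg gave 823 and recipients of CSA at 50 mg/kg gave 875.

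All recipients were irradiated B6D2F1 mice, an F1 hybrid that carries a second set of MHC molecules which B6 T cells attack, and all of them, saline controls included, were given 5000000 B6 bone marrow cells, 2000000 B6 T cells and 1000 TEa T cells, whose transgenic T cell receptor (TCR) recognizes a recipient peptide and which are CD4+. Saline or CSA at 5 or 50 mg/kg was given daily from day 0 to day 6, and donor T cells were sorted on day 7. Each group had 6 mice, whose spleens were combined by 2 into 3 pools that were told apart by hashtag antibodies, so that n = 3 pools per group. CD4+ and CD8+ cells of a group were loaded together in 1 droplet capture, so treatment and capture cannot be told apart, and p-values measure the spread between pools of the same capture. RNA was counted as unique molecular identifiers (UMIs) with 5' chemistry, and counts were summed over the C2 cells of a pool. Levels between doses are counts per 1000000 after TMM scaling (TMM CPM), a scaling that sets the average gene to no change, while levels between clusters are counts per 1000000 of the cluster's own UMIs (CPM).

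Cyclosporin A blocks calcineurin, the phosphatase that frees NFAT transcription factors to enter the nucleus after the TCR is engaged, and NFAT drives cytokine genes, activation genes and, when signalling persists, Tox and the inhibitory receptors of exhausted T cells. CD8+ T cells that meet alloantigen divide within days and become cytotoxic effectors that damage the tissues of the recipient. A cell that enters the cycle first turns on genes for DNA replication through E2F transcription factors (S phase), together with histone genes, and then genes for the mitotic spindle and its checkpoints (G2/M). PCLAF, the product of Pclaf (chr9:65890237-65903266 in mm10), binds the replication clamp PCNA, and Ki-67, the product of Mki67 (chr7:135689784-135716361), coats chromosomes in mitosis and is present in every phase of the active cycle.

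A pool held between 191 and 370 C2 cells and between 1394290 and 4169557 UMIs in them. The median number of UMIs per C2 cell was 5355 with saline, 9513 with 5 mg/kg CSA and 11246 with 50 mg/kg CSA, against 3849, 5147 and 6367 in the other CD8+ cells, so depth per cell rose with dose in C2, and its part in the results was not tested beyond the values given for cells of 6000 to 10000 UMIs. The median share of mitochondrial UMIs was 1.87%, 1.51% and 1.52%. In 196 C2 cells the second hashtag reached 0.5 of the UMIs of the first, no CD8+ cell was marked as a doublet in the table, and 218 barcodes of the series occurred in more than 1 capture, among them those of 45 C2 cells. Cd3e, Cd8a and Cd8b1 summed to 2498 to 4066 CPM in C2, and Cd4 was at 0 in every pool. Of 7 B cell markers, whose sum was 191 to 219, 187 to 189 and 419.9 to 503 CPM by dose, Jchain was at 152, 182 and 54.9 CPM at 50 mg/kg and at 0 in 5 of the 6 other pools. The erythroid list stayed at or below 68.5 CPM, the 6 myeloid markers at 278 to 331 CPM, and the 5 NK cell markers at 102 to 132 CPM with saline and 31.9 to 67.4 CPM at 50 mg/kg. The part of these markers in the results was not tested. Pool 3 at 50 mg/kg stood apart from its group for several genes below, and values without it are given where they change a result.

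C2 cells were set apart from the other CD8+ cells mainly by DNA replication genes. Since clusters were drawn on the same RNA, these differences are a description and were not tested. All 64 genes of an S phase list (origin licensing, DNA polymerases, nucleotide supply and replication-fork proteins) were higher in C2 than in the other CD8+ cells of the pool in 9 of 9 pools, with a median log2 difference of 1.72, while 12.92% of 7882 genes of at least 10 CPM were higher in every pool and the median over these genes was -0.05. The 64 genes together held 8893 to 11412 CPM in C2, 2341 to 4711 CPM in C3 (cycling effector #2), 8230.5 to 12119 CPM in C4 (the third cycling cluster) and 1327 to 3225 CPM in C1 (a Cd226lo effector cluster outside the cycle). Against C3, too, all 64 were higher in 9 of 9 pools. Against C4, compared in the 3 saline pools only, 19 of the 64 were higher and 31 lower in every pool, with a median difference of -0.09. Of all genes, 15.2% were higher and 61% lower than in C4, with a median of -0.32.

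Among genes of at least 50 CPM in C2, the 20 with the largest difference included 12 of the S phase list, 2 histones and none of the G2/M list. Hist1h2ap, a replication-dependent histone H2A (chr13:21833026-21833507), led with a mean log2 difference of 3.17 and 77.5 to 199 CPM in C2 and 7.57 to 30.8 CPM in the other cells. Cdc6 (chr11:98907801-98923940), which loads the MCM helicase on replication origins, was at 49.9 to 113 CPM in C2 and 1.65 to 42.5 CPM in the other cells. Clspn (chr4:126556935-126593903), an adaptor of the replication checkpoint, differed by 2.51, and Esco2 (chr14:65819038-65833994), which acetylates cohesin during replication, by 2.41. Against C4 in the 3 saline pools, Clspn and Esco2 were lower in C2 in every pool (-0.43 and -0.80), and Hist1h2ap and Cdc6 were higher (0.91 and 0.38). Others were Tcf19, Fbxo5, Hist1h2ae, Rfc3, Cenps, Mybl2, Gins2, E2f8, Rrm2, Chaf1a, Lig1, Cdc45 and Uhrf1, whose differences lay between 2.07 and 2.42. They include a clamp loader subunit (Rfc3), an enzyme of nucleotide supply (Rrm2), a histone chaperone subunit (Chaf1a), the ligase of the lagging strand (Lig1) and a reader of hemimethylated DNA (Uhrf1).

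Some promoters of the S phase genes held the words that E2F factors are known to bind. In the RefSeq promoters of GRCm38.p6, which span 250 bases before to 50 bases after the start of a gene, TTTCGCGC or TTTGGCGC occurred on either strand in 15 of the 50 S phase genes that had an entry (30%), in 3 of 56 G2/M genes (5.36%), in 148 of 7395 genes tested in C2 (2.00%) and in 251 of 27025 genes (0.929%). Both words can overlap on opposite strands, and a match is a description of the letters and not of binding. Stretches upstream of the start are shown for Mcm5, Mcm6, Orc1 and Dtl, replication genes that were higher in C2 than in the other CD8+ cells in 9 of 9 pools. Dtl was included as a gene that fell with dose. Mcm5 and Mcm6 are subunits of the MCM helicase, and Orc1 marks the origin. The strand is that of the gene, and capitals mark the matches.
Mcm5, chr8:75109326-75109397, plus strand: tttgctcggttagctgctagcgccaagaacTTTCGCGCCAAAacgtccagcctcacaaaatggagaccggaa
Mcm6, chr1:128359715-128359845, minus strand: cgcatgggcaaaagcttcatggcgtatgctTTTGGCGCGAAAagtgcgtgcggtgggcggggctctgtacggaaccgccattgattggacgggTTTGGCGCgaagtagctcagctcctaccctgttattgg
Orc1, chr4:108579397-108579453, plus strand: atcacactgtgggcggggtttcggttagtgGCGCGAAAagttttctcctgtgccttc
Dtl, chr1:191575545-191575582, minus strand: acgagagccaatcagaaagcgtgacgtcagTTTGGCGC
In Mcm5 and in the first match of Mcm6 both words lay over each other on opposite strands, which gave the longer capitals.

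Genes of G2 and mitosis were higher in C2 than in C1, the effector cluster outside the cycle. Of 71 G2/M genes, 69 of the 70 at 10 CPM or more were higher than in C1 in every pool, beside 18.88% of all genes at that level. Against C3, 13 were higher and 21 lower in every pool (14.06% and 14.1% of all genes), with a median difference of -0.05. Against C4, which had enough cells only in the 3 saline pools, 5 of 70 were higher and 63 lower with a median of -1.15, while 15.2% of all genes were higher and 61% lower with a median of -0.32. Their sum was 17141 to 19872 CPM in C2, 16169 to 22802 CPM in C3 and 25906 to 42247 CPM in C4, which held only 6 or 7 cells in each pool at 50 mg/kg. Of the 2 labelled markers, Pclaf was at 729, 689 and 626 CPM in the saline pools of C2 and was above the other CD8+ cells in 9 of 9 pools, whereas Mki67 was above them in 6 of 9 pools. Both were below C4 in all 3 saline pools (log2 differences of -0.12 and -1.65).

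**Figure D1:**
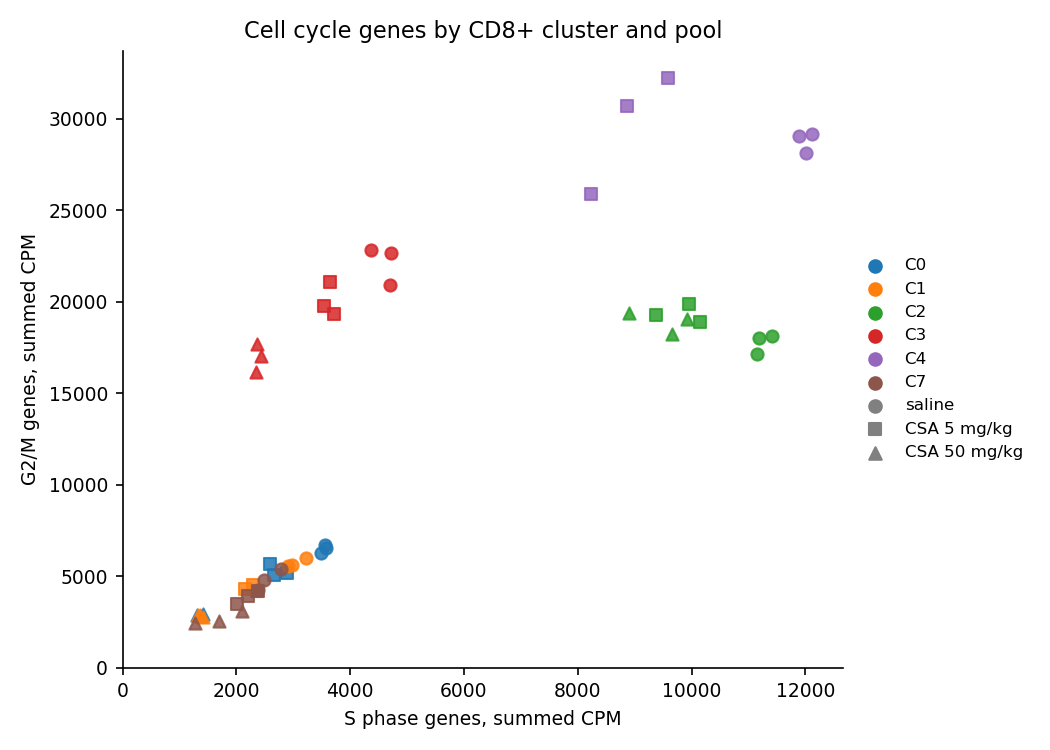
Summed CPM of 64 S phase genes (x axis) against summed CPM of 71 G2/M genes (y axis), 1 point per cluster (C0 to C4 and C7) and pool with at least 10 cells, coloured by cluster and shaped by dose. C2 lies at 8893 to 11412 CPM on the S phase axis, right of every C3 and C1 point, and at 17141 to 19872 CPM on the G2/M axis, within the range of C3 and below C4.

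The name Cd226lo held against the effector and cycling clusters but not against C1. Cd226, an activating receptor of the nectin family, was at 233, 268 and 229 CPM in the saline pools of C2, 502, 482 and 482 CPM in C0, 372, 355 and 394 CPM in C3 and 411, 367 and 394 CPM in C4, and C2 was below these 3 clusters in every pool. In C1 it was at 205, 225 and 167 CPM, and C2 was above C1 in 3 of 9 pools. Of 37 genes of a memory, homing and effector differentiation list, 23 were lower and 1 was higher in C2 than in the other CD8+ cells in 9 of 9 pools, beside 17.8% of all genes lower and 12.92% higher. Tcf7, a transcription factor of memory precursors, was at 7.20 to 50.4 CPM in C2 and 29.1 to 122 CPM in the other cells, and Il7r, the receptor chain for the survival cytokine IL-7, at 22.2 to 77.0 CPM in C2 and 104 to 242 CPM in the other cells. Ccr7, Bcl2, Bach2, Btg1, Txnip and Ltb were also lower in 9 of 9 pools, by 1.04 to 2.35 on the log2 scale. The other cells include naive cells. Against C3, 18 of 36 list genes were lower and 0 higher in every pool, and Bcl2 differed by 0.03. Against C4 in the 3 saline pools, 15 of 36 were lower and 10 higher, beside 61% and 15.2% of all genes. There Il7r, Bcl2 and Ltb were higher in C2 in every pool (0.47, 0.29 and 0.59), and Bach2 and Btg1 lower (-0.85 and -0.11). Of 25 cytotoxic and effector genes, none was higher and 12 were lower in C2 than in the other CD8+ cells in every pool, with a median difference of -0.35. Ccl4, a chemokine of activated killer cells, differed by -0.78 and was lower in 9 of 9 pools, whereas Gzmb was above the other CD8+ cells in 6 of 9, and Tbx21, the factor T-bet, differed by 0.03. Low Ccl4 did not hold against single clusters: it was higher in C2 than in C3 in 9 of 9 pools (0.93), than in C1 in 6 of 9 and than in C4 in 3 of 3 saline pools (0.82). Of the 25 genes, 2 were higher and 9 lower than in C1 in every pool (median -0.09), beside 18.88% and 12.22% of all genes. Against C3 it was 2 and 8 (median -0.19), beside 14.06% and 14.1%. Against C4 in the saline pools it was 8 and 10 (median 0.03), beside 15.2% and 61%. Gzmb was above C1 in 9 of 9 pools.

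The share of C2 among CD8+ cells was higher in both CSA groups than with saline. It was 16.6, 17.0 and 17.9% in the saline pools, 27.6, 30.6 and 33.2% at 5 mg/kg and 25.2, 21.4 and 27.3% at 50 mg/kg, with means of 17.1% ± 0.646, 30.5% ± 2.81 and 24.7% ± 2.96 (SD, n = 3 pools). No 2 groups overlapped, and each pairwise exact permutation test gave p = 0.1, the smallest that 3 pools against 3 allow. The share was highest at the lower dose, and the exact two-sided Jonckheere-Terpstra permutation test of a trend with dose gave p = 0.388 (adjusted over 9 clusters, 0.437). By edgeR's quasi-likelihood test on cell numbers, with Benjamini-Hochberg adjustment over the clusters, the log2 change was 0.83 with 5 mg/kg (adjusted p = 0.000154) and 0.52 with 50 mg/kg (adjusted p = 0.00338). A share also moves with the other clusters: C4 made up 21.9% ± 1.36, 3.06% ± 0.110 and 0.567% ± 0.0480 of CD8+ cells, and among the cells outside C4 the means of C2 were 21.9%, 31.4% and 24.8%, a difference of 2.85 percentage points between 50 mg/kg and saline (exact permutation test of the trend, adjusted p = 0.89). Among cycling cells (C2, C3 and C4), C2 held 32.2%, 61.8% and 54.9%.

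**Figure D2:**
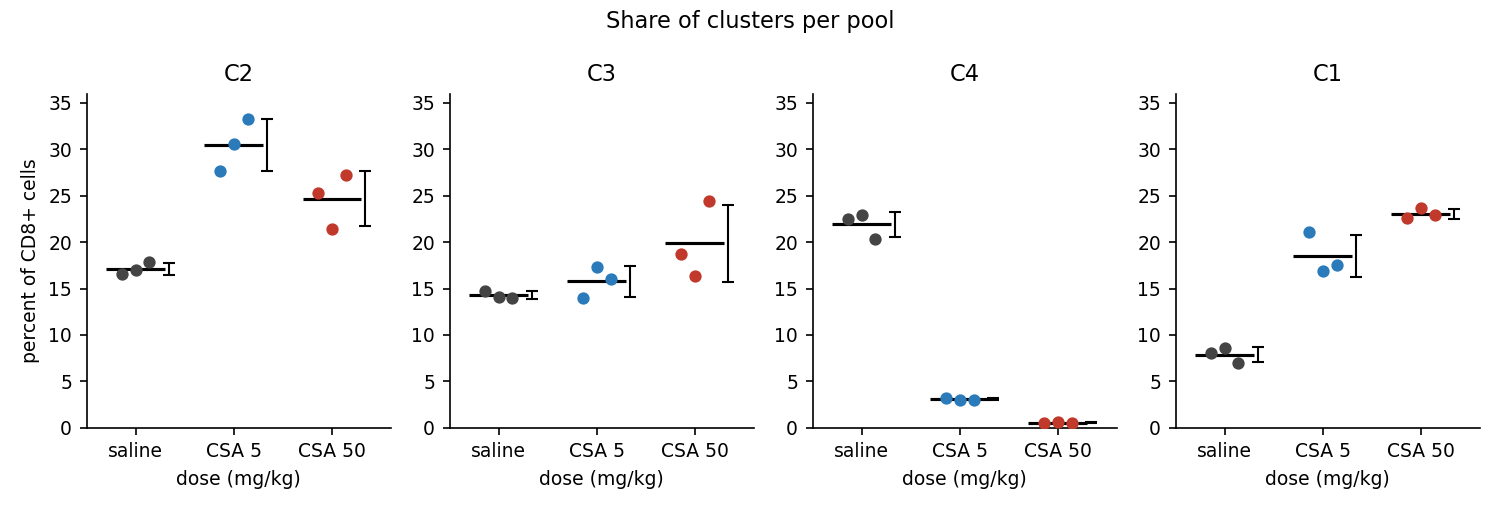
Percent of the CD8+ cells of a pool in C2, C3, C4 and C1 by dose, 1 point per pool with a bar at the mean and error bars of 1 SD (n = 3 pools). The C2 pools lie at 16.6% to 17.9% with saline, 27.6% to 33.2% with 5 mg/kg CSA and 21.4% to 27.3% with 50 mg/kg CSA, while C4 falls from 20.3% or more to under 1%.

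The RNA of C2 cells differed widely between doses. Of 9386 genes tested with edgeR's quasi-likelihood test and Benjamini-Hochberg adjustment, 3524 passed 0.05 at 5 mg/kg against saline (37.5%; 1788 higher, 19%, and 1736 lower, 18.5%), 5139 at 50 mg/kg against saline (54.8%; 2557 higher, 27.2%, and 2582 lower, 27.5%) and 2006 between the doses (21.4%; 1015 higher, 10.8%, and 991 lower, 10.6% at 50 mg/kg). Counts of genes in the lists below are to be read beside these shares of all genes. All adjusted p below are from this fit unless another is named, both comparisons with saline share the saline pools, and fewer cells that express a gene and less RNA of it per cell cannot be told apart in these sums. The split by direction depends on the scaling: without TMM, the median change of all genes moved to -0.31, -0.37 and -0.08, and the counts were 616 higher and 3647 lower, 1010 and 4486, and 631 and 1382. In cells of 6000 to 10000 UMIs, whose median depth was 7492.5 UMIs with saline (224 cells), 8065.5 with 5 mg/kg (296 cells) and 8377.5 with 50 mg/kg (246 cells), of 6846 genes tested, 624 were higher and 427 lower at 5 mg/kg, 219 were higher and 250 lower between the doses, and 1117 were higher and 1020 lower at 50 mg/kg.

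Most inhibitory receptors and exhaustion factors fell at 50 mg/kg. Of 20 tested, 17 fell and 1 rose at 50 mg/kg, with a median log2 change of -2.04 beside -0.0071 over all genes. At 5 mg/kg 6 fell and 1 rose, a share near the 37.5% of all genes that passed, with a median of -0.17, and between the doses 17 fell. Tox (chr4:6686353-6991557), a chromatin factor that sustains the exhausted state, was at 132, 126 and 135 TMM CPM in the saline pools, 92.5, 97.1 and 99.1 at 5 mg/kg and 5.38, 6.78 and 11.6 at 50 mg/kg. The 50 mg/kg pools lay far below all others (log2 change -3.97, standard error 0.15, adjusted p = 3.72e-16), and the fall at 5 mg/kg was smaller (log2 change -0.44, standard error 0.10, adjusted p = 0.00138) and did not pass in cells of 6000 to 10000 UMIs, where fewer cells gave a change of -0.36 (adjusted p = 0.0967). Pdcd1 (chr1:94038305-94052553), which encodes the receptor PD-1, was at 310.1, 339.8 and 348 TMM CPM with saline, 342, 326 and 289 with 5 mg/kg CSA and 23.3, 16.0 and 89.1 with 50 mg/kg CSA. The saline and 5 mg/kg pools overlapped (adjusted p = 0.81), and at 50 mg/kg the log2 change was -2.83 (adjusted p = 1.68e-09), or -4.07 without pool 3, the highest of that group.

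Lag3, a receptor for MHC class II, changed by -1.34 at 50 mg/kg (adjusted p = 1.07e-08) and Havcr2, which encodes TIM-3, by -1.08 (adjusted p = 2.98e-10). Havcr2 had already fallen at 5 mg/kg (-0.62, adjusted p = 3.52e-06), while Lag3 had not (0.15, adjusted p = 0.375). Tigit, a nectin receptor that opposes CD226, changed by -1.02 at 50 mg/kg. Entpd1 and Cd38, a pair of ectoenzymes of exhausted cells, changed by -1.85 and -2.48. Ikzf2, the factor Helios, changed by -3.81, from 28.8 ± 2.12 to 1.95 ± 1.05 TMM CPM (SD, n = 3 pools). Lilr4b and Lilrb4a, a pair of near-identical inhibitory receptor genes whose reads can be shared, changed by -3.77 and -3.85 (Lilrb4a by -4.51 without pool 3 at 50 mg/kg). Cd160 did not pass at 50 mg/kg (-0.08, adjusted p = 0.432). Eomes, a T-box factor of memory and exhausted cells, was the 1 gene of the list that rose at 50 mg/kg, by 0.29 with TMM (adjusted p = 0.0453) and -0.07 without it. The call was lost without any 1 of 5 pools (adjusted p = 0.0501 without pool 1 at 5 mg/kg, 0.0524 and 0.211 without pools 1 and 3 at 50 mg/kg, and 0.0865 and 0.183 without saline pools 1 and 2) and in DESeq2 (adjusted p = 0.223). In edgeR it was also lost with the pool number as a block (adjusted p = 0.0527), with only the groups compared (0.0529), without cells of 2 strong hashtags (0.0837) and in cells of 6000 to 10000 UMIs (0.226). At 5 mg/kg Eomes changed by -0.84, and by -0.68 in cells of 6000 to 10000 UMIs, which did not pass (adjusted p = 0.0585).

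Cd226, which the list of TCR-induced genes holds, fell at each dose. It was at 203, 229 and 198 TMM CPM with saline, 127, 133 and 156 with 5 mg/kg CSA and 47.7, 47.9 and 49.3 with 50 mg/kg CSA, with no overlap between any 2 groups (as for 47.9% of all genes tested at 5 mg/kg, 59.6% at 50 mg/kg and 35.3% between the doses). The log2 change was -0.58 at 5 mg/kg (standard error 0.08, adjusted p = 5.00e-06), -2.12 at 50 mg/kg (standard error 0.09, adjusted p = 5.97e-15) and -1.54 between the doses (adjusted p = 1.29e-11). In cells of 6000 to 10000 UMIs it was -0.45 and -1.81 against saline. C2 is named for low Cd226 and clusters were drawn on the same RNA, so the level of Cd226 can be partly set by membership. The adjusted p of Cd226 do not measure an effect apart from membership.

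Of 31 genes induced by TCR signalling, 17 fell and 8 rose at 50 mg/kg (median -0.50), beside 27.5% and 27.2% of all genes, and 9 fell and 4 rose at 5 mg/kg (median -0.07). Without TMM, 22 fell and 3 rose at the higher dose (median -0.87), and 13 fell and none rose at the lower. Tnfrsf9, the costimulatory receptor 4-1BB, was at 165, 156 and 149 TMM CPM with saline, 192, 179.7 and 158 with 5 mg/kg CSA and 54.9, 45.5 and 48.2 with 50 mg/kg CSA. It passed at 50 mg/kg (log2 change -1.65, standard error 0.10, adjusted p = 7.26e-13) and not at 5 mg/kg (adjusted p = 0.135). Tnfrsf4, the costimulatory receptor OX40, went from 27.7 ± 4.14 TMM CPM with saline to 1.66 ± 1.34 at 50 mg/kg (SD, n = 3 pools; log2 change -4.10, or -4.82 without pool 2 at 50 mg/kg). Nfatc1, an NFAT gene that NFAT itself induces, changed by -0.55 and -1.16 (adjusted p = 3.41e-05 and 1.95e-10). Batf, an AP-1 partner of IRF4, rose at 5 mg/kg by 0.37 (0.08 without TMM, which did not pass, as in cells of 6000 to 10000 UMIs) and changed by -0.64 at 50 mg/kg (adjusted p = 0.000537 and 4.50e-07).

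The 3 genes of the Nr4a family, nuclear receptors that TCR signals switch on, did not move together. Nr4a2 changed by -2.51 and Nr4a3 by -2.13 at 50 mg/kg, while Nr4a1 rose by 1.51, from 14.4, 13.8 and 15.6 TMM CPM with saline to 48.4, 49.1 and 30.3 at 50 mg/kg (adjusted p = 7.27e-10, 0.00022 and 1.30e-06). Their signs were the same without TMM. Cd69, an early activation receptor, and Irf4 did not pass at either dose. Cd40lg, the ligand CD40L of helper cells, was at 6.88, 3.93 and 2.93 TMM CPM with saline and at 0 in all 3 pools at 50 mg/kg, with 25 UMIs over the saline pools.

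**Figure D3:**
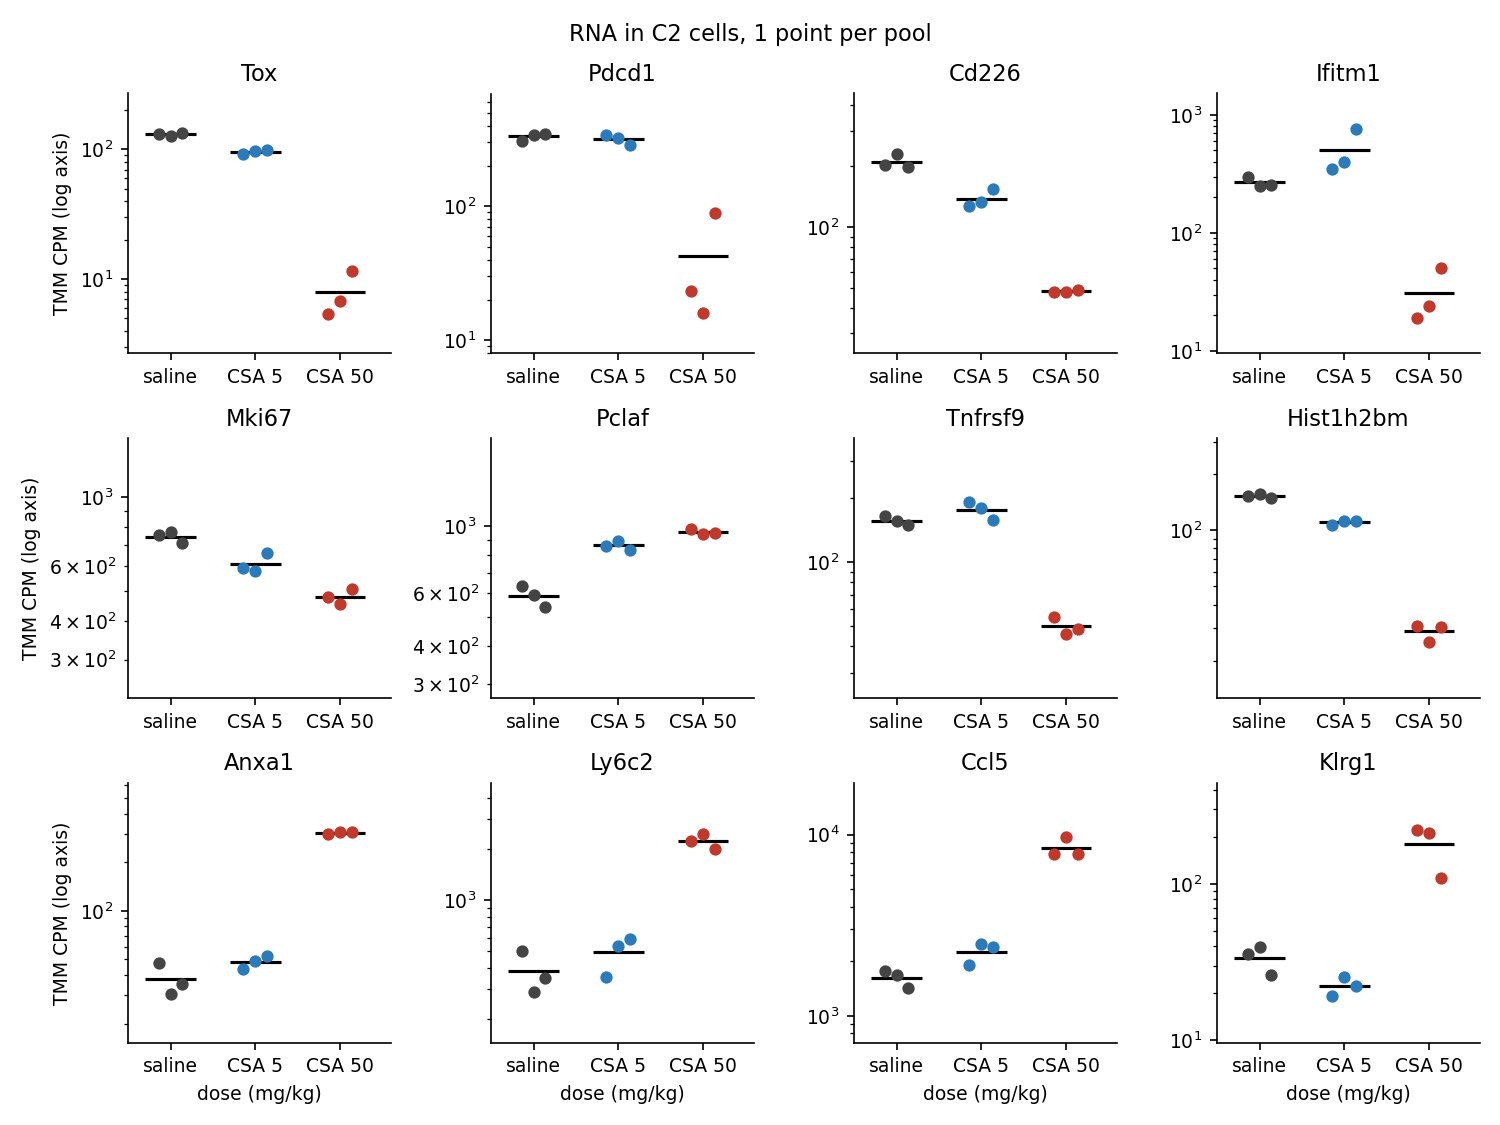
TMM CPM of 12 genes in the C2 cells of each pool (log axis), 1 point per pool with a bar at the group mean and the groups ordered by dose. Tox, Pdcd1 and Ifitm1 are lower in the 50 mg/kg pools than in any other pool, Cd226 and Mki67 step down at each dose, and Anxa1, Ly6c2, Ccl5 and Klrg1 are higher in the 50 mg/kg pools than in any other.

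The direction of the cytotoxic genes depended on the scaling. Of 25 tested, 12 rose and 9 fell at 50 mg/kg with a median of 0.21, and 10 rose and 2 fell at 5 mg/kg. Without TMM, 6 rose and 12 fell at the higher dose (median -0.15), and 2 rose and 6 fell at the lower. Gzmb, the main granule protease of killer cells, was at 2469.8, 1943 and 2011 TMM CPM with saline, 2759, 2954 and 3132 with 5 mg/kg CSA and 2915, 2748 and 2506 with 50 mg/kg CSA. The log2 change from saline to 50 mg/kg, 0.35 (adjusted p = 0.000127) was -0.02 without TMM and -0.01 in cells of 6000 to 10000 UMIs, so its direction depended on the scaling and the cells used. Prf1, which encodes the pore protein perforin, changed by -1.05 at 50 mg/kg (adjusted p = 8.78e-12) and 0.03 at 5 mg/kg (adjusted p = 0.787).

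The secreted factors of the list split. Ccl5 (chr11:83525778-83530518), a chemokine stored by effector and memory cells, was at 1768, 1673 and 1418 TMM CPM with saline, 1913, 2477 and 2392 with 5 mg/kg CSA and 7853, 9642 and 7782 with 50 mg/kg CSA, an increase of 2.38 on the log2 scale at the higher dose (standard error 0.09, adjusted p = 2.50e-16). Xcl1, a chemokine for cross-presenting dendritic cells, went the other way, from 18.1, 28.0 and 84.5 to 0.359, 0.399 and 2.98 TMM CPM (log2 change -4.92, standard error 0.81, adjusted p = 1.59e-05), a change that was -6.72 without pool 3 at 50 mg/kg and -3.99 without saline pool 3. Ifng, the main effector cytokine, changed by -0.88 (adjusted p = 9.24e-05, and 0.0551 in cells of 6000 to 10000 UMIs), and Tnf did not pass (-0.24, adjusted p = 0.545). Gzmc and Gzmm, granzymes of lower abundance, rose by 2.44 and 1.61. Fasl, the death ligand, changed by -1.26 (adjusted p = 9.54e-09).

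Genes of memory, homing and effector differentiation moved apart at 50 mg/kg. In the list of memory, homing and effector differentiation genes, 21 of 38 rose and 10 fell (median 0.32, and -0.04 with 12 up and 15 down without TMM), against 7 and 9 at 5 mg/kg. Between the doses 22 rose and 10 fell. Ly6c2 (chr15:75108158-75111970), which encodes the surface protein Ly6C of effector and memory CD8+ cells, was at 506, 289 and 349.9 TMM CPM with saline, 356, 538 and 592 with 5 mg/kg CSA and 2231, 2457 and 1997 with 50 mg/kg CSA. The 50 mg/kg pools were above all others (log2 change 2.56, standard error 0.14, adjusted p = 2.24e-13). Klrg1 (chr6:122270596-122282882), an inhibitory receptor of terminal effectors, was at 35.6, 39.3 and 25.9 TMM CPM with saline, 19.2, 25.5 and 22.1 with 5 mg/kg CSA and 221, 212 and 109 with 50 mg/kg CSA. It did not pass at 5 mg/kg (adjusted p = 0.14) and rose by 2.41 at 50 mg/kg (adjusted p = 1.28e-09), or 2.69 without pool 3, the lowest of its group.

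Lmna, which encodes the nuclear lamins A and C, had the largest rise of the list, from 2.50, 1.48 and 2.44 TMM CPM with saline to 114, 105 and 76.1 at 50 mg/kg, a log2 change of 5.49 (adjusted p = 1.85e-14). Cxcr3, a receptor for inflammatory chemokines, rose by 0.56 and was also above saline without TMM (0.19). Tcf7 changed by -1.86, Il7r by -0.75 and Cx3cr1, a fractalkine receptor of effector cells, by -3.90 (adjusted p = 1.60e-07, 0.000241 and 3.26e-13). Tbx21 did not pass at either dose.

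By the rule of the 10 largest changes with 50 mg/kg, for genes with a mean of 50 TMM CPM or more over the 9 pools, which Lmna did not reach, and no overlap of pools (59.6% of all genes tested), the other rises were those of Anxa1, Ctla2a, S100a4, S100a6, Chchd10, Hist1h2ap and Klrd1, and the other falls those of Ifitm1, Nrgn, Serpina3g, Hist1h2bm, Ifitm3, Lyst and Hist1h3e. Anxa1 (chr19:20373428-20390944), a calcium-dependent membrane protein that dampens inflammation, was at 47.5, 30.5 and 35.2 TMM CPM with saline, 43.8, 48.9 and 52.6 with 5 mg/kg CSA and 298, 309 and 307 with 50 mg/kg CSA, the largest rise of the rule (log2 change 3.04, standard error 0.10, adjusted p = 7.02e-17). By the same rule between the doses, where 35.3% of all genes had no overlap, the rises not among these were Itgax, Ass1, Cldnd1 and Dusp2 (1.26 to 1.39), which encode an integrin, an enzyme of arginine synthesis, a claudin-like membrane protein and a phosphatase of MAP kinases, and the falls not among these were Tnfrsf9 (-1.82) and Fcer1g (-1.69), a signalling chain of Fc receptors. The S100 genes, which encode calcium-binding proteins, rose at each step: S100a6 changed by 1.20 at 5 mg/kg and 0.65 between the doses, and S100a4 by 0.93 and 1.18. Klrd1, which encodes CD94, rose by 1.54, its partner Klrc1 by 0.85 and Klrk1, another killer lectin-like receptor gene, by 1.34.

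A pair of interferon-induced membrane proteins that block virus entry changed in opposite directions at the 2 doses. Ifitm1 (chr7:140967221-140969825) was at 299, 251 and 256 TMM CPM with saline, 346, 399 and 760.4 with 5 mg/kg CSA and 19.0, 23.9 and 50.7 with 50 mg/kg CSA, with log2 changes of 0.94 (adjusted p = 0.000593) and -3.02 (adjusted p = 1.67e-09), the latter -3.64 without pool 3 at 50 mg/kg and -4.93 in cells of 6000 to 10000 UMIs. Ifitm3 (chr7:141009586-141010770) was at 57.5, 39.3 and 52.3, then 86.5, 94.2 and 122 and 11.1, 10.8 and 7.58 TMM CPM, with log2 changes of 1.07 and -2.35. Both rises stayed positive without TMM (0.65 and 0.78), and that of Ifitm1 was 0.48 without pool 3 at 5 mg/kg, the highest of its group (adjusted p = 0.0176), and 0.91 in DESeq2, where it did not pass (adjusted p = 0.125). The list of interferon-stimulated genes, which holds neither of them, had 13 of 31 falling and 5 rising at 50 mg/kg (median -0.37), beside 27.5% and 27.2% of all genes. At 5 mg/kg 7 fell and 7 rose (median 0.03), beside 18.5% and 19% of all genes. Without TMM, 20 fell and 2 rose at the higher dose, and 12 fell and 2 rose at the lower. Gbp7, an interferon-induced GTPase, changed by -0.95 at 50 mg/kg.

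The S phase genes that mark C2 had medians near that of all genes at both doses. Of the 64 S phase genes, 20 rose and 10 fell at 5 mg/kg and 23 rose and 14 fell at 50 mg/kg, with medians of 0.04 and 0.10, while without TMM 32 and 36 fell, 2 and 4 rose and the medians were -0.25 and -0.27. The CPM sum of the list in C2 went from 11155 to 11412 with saline to 8893 to 9919.5 at 50 mg/kg. Clusters were drawn on the same RNA, so these levels are partly set by membership of C2. Of the MCM genes shown above, Mcm5 changed by 0.15 and Mcm6 by -0.04 at 50 mg/kg, and neither passed. Pclaf was at 635, 590.1 and 540.0 TMM CPM with saline, 857, 896 and 836 with 5 mg/kg CSA and 977, 943 and 946 with 50 mg/kg CSA and rose by 0.55 and 0.70 (adjusted p = 1.74e-08 and 1.03e-10). Dtl, a ubiquitin ligase adaptor that clears licensing factors in S phase, fell from 98.1, 101 and 115 to 54.2, 53.9 and 47.4 TMM CPM (log2 change -1.03), and Atad2 and Topbp1 changed by -0.81 and -0.77.

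Mki67 fell while most other G2/M genes did not. It was at 755, 773 and 712 TMM CPM with saline, 589, 579.5 and 658 with 5 mg/kg CSA and 477, 451 and 507 with 50 mg/kg CSA, with no overlap between any 2 groups and log2 changes of -0.29 and -0.64 (adjusted p = 0.000348 and 1.95e-09). Since clusters were drawn on the same RNA, levels of Mki67 and the other G2/M genes were partly set by membership of C2. Their adjusted p do not measure an effect apart from membership. Of 71 G2/M genes, 46 rose and 2 fell at 5 mg/kg and 41 rose and 5 fell at 50 mg/kg, with medians of 0.33 and 0.35, a direction that was lost without TMM, where 17 rose and 7 fell at 5 mg/kg, 19 rose and 19 fell at 50 mg/kg, and the medians were 0.04 and -0.02. Birc5, the chromosomal passenger survivin, rose by 0.87, Stmn1, which destabilizes microtubules, by 1.03, and Cdk1, the mitotic kinase, by 0.85 at 50 mg/kg, and these were also positive without TMM (0.51, 0.67 and 0.48). Ccnb1, the cyclin of mitotic entry, changed by 0.40, by 0.03 without TMM and by -0.56 in cells of 6000 to 10000 UMIs.

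Among the regulators of the cycle, Cdk6 fell and Ccnd2 rose at 50 mg/kg. Cdk6, a kinase that opens the G1 gate, was at 86.9, 81.6 and 88.9 TMM CPM with saline, 66.7, 72.0 and 64.2 with 5 mg/kg CSA and 22.2, 21.2 and 25.7 with 50 mg/kg CSA (log2 change -1.88, adjusted p = 1.21e-12). Ccnd2, a D cyclin, rose by 1.04, and Cdkn2c, the inhibitor p18 of Cdk6, by 1.07 (adjusted p = 7.41e-08 and 9.14e-08). Rbl2, a pocket protein of resting cells, changed by -1.51. Over the list, 13 of 33 rose and 11 fell (median 0.09, and -0.28 without TMM), beside 27.2% and 27.5% of all genes. Myc did not pass against saline at either dose.

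Most histone genes fell at 50 mg/kg under either scaling. Of 43 replication-dependent histone genes tested, 32 fell and 3 rose at 50 mg/kg (median -1.10; without TMM 37 and 2), and 16 fell and 6 rose at 5 mg/kg (median -0.27). Hist1h2bm was at 154, 156 and 149 TMM CPM with saline, 107, 112 and 112 with 5 mg/kg CSA and 30.5, 25.1 and 30.3 with 50 mg/kg CSA, and Hist1h1b, the linker histone H1.5, at 1945, 1827 and 1679.6, then 1447, 1392 and 1343 and 843, 948 and 880.1. Their log2 changes at 50 mg/kg were -2.40 and -1.03. Hist1h2ap went the other way, from 67.5, 71.8 and 71.8 to 189.8, 182 and 186 and 205, 219.5 and 209 TMM CPM (log2 change 1.58, adjusted p = 2.66e-14). These genes are near-identical copies whose reads can be split between them, and most of their RNA has no poly(A) tail, so a share of them escapes a poly(A) library. The summed level was lower in cells outside the cycle as well: over 63 histone genes it was 7620.1 to 8545, 5974 to 6429 and 3126 to 3456 CPM in C2 and 4862 to 5272, 2576 to 2910.3 and 364 to 429 CPM in C7, the naive cluster, and its part in the result for C2 was not tested.

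**Figure D4:**
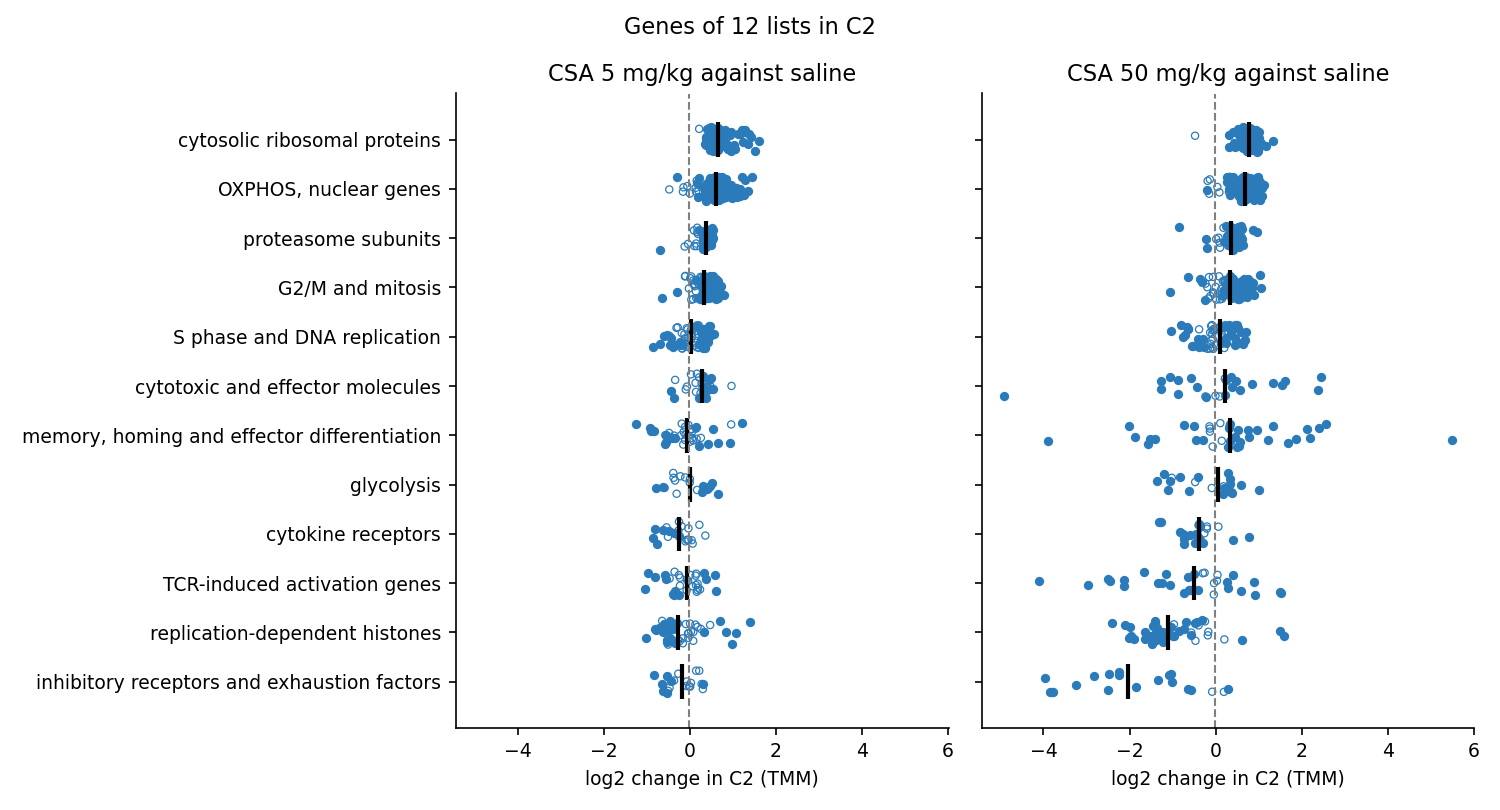
Log2 change in C2 of every tested gene of 12 gene lists at 5 mg/kg (left) and 50 mg/kg (right) against saline, with a black bar at the median of the list, filled points for genes with an adjusted p under 0.05 and a dashed line at the median of all 9386 genes. Ribosomal proteins and OXPHOS genes lie right of 0 at both doses (medians 0.77 and 0.68 at 50 mg/kg), and inhibitory receptors and histones lie left of it at 50 mg/kg (medians -2.04 and -1.10).

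Genes of protein synthesis and mitochondrial respiration rose in C2 at both doses. Of 81 cytosolic ribosomal protein genes, 79 rose with 5 mg/kg, 80 with 50 mg/kg, and none fell, with medians of 0.66 and 0.77, and 76 rose at each dose without TMM. Rpl38, a protein of the large subunit, was at 592, 607 and 619 TMM CPM with saline, 1788, 1892 and 1821 with 5 mg/kg CSA and 1188, 1199 and 1241 with 50 mg/kg CSA, and with Rps28, Rps29, Rps21 and Rpl41 it was among the 10 largest rises at 5 mg/kg. These 5 genes were lower at 50 than at 5 mg/kg, with log2 changes between the doses of -0.62 to -0.31. That of Rpl41 was -0.25 in cells of 6000 to 10000 UMIs, where fewer cells were left and it did not pass (adjusted p = 0.074). Of 88 nuclear genes of oxidative phosphorylation (OXPHOS), 78 rose and 1 fell at 5 mg/kg and 79 rose and 1 fell at 50 mg/kg, with medians of 0.61 and 0.68 (60 and 63 rose without TMM). Atp5k and Ndufa3 of this list were also among the 10 largest rises at 5 mg/kg (1.45 and 1.35), as were Usmg5, an ATP synthase gene outside the list (1.37), and Gm8186 (1.45). Ndufa1 of complex I rose by 1.17 and 1.12, and Atp5l of the ATP synthase by 1.05 and 1.09.

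The 13 protein genes of the mitochondrial genome, which encode partners of the same complexes, did not rise with them. At 50 mg/kg 3 rose and 6 fell, with a median of 0.0073 (without TMM, 12 fell and none rose), and 2 rose and 4 fell at 5 mg/kg. mt-Co3, of complex IV, changed by 0.40 (0.03 without TMM) and mt-Nd5, of complex I, by -0.39 (-0.15 in cells of 6000 to 10000 UMIs, which did not pass). Proteasome subunits rose on the TMM scale, 32 of 42 at 5 mg/kg and 33 at 50 mg/kg, but 14 and 10 without TMM, where the median at 50 mg/kg was -0.0014. Psmb2, a catalytic-ring subunit, rose by 0.88.

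Glycolysis genes changed in both directions, and the split depended on the scaling. Of 20, 8 rose and 2 fell at 5 mg/kg (19% and 18.5% of all genes), and 9 rose and 7 fell at 50 mg/kg (27.2% and 27.5% of all genes) with a median of 0.05. Without TMM 3 rose and 7 fell, then 2 and 12. Of 27 genes of amino acid and one-carbon supply 6 rose and 10 fell at 50 mg/kg (median -0.08), beside 27.2% and 27.5% of all genes. Slc2a3, a glucose transporter, changed by -1.37, Hk2, the first enzyme of the path, by -1.19, and Hif1a, a factor that drives glycolysis genes and stands on the TCR-induced list, by -1.24 (adjusted p = 9.39e-09, 0.00508 and 6.61e-12). Of 21 cytokine receptor genes 14 fell and 2 rose (median -0.40), beside 27.5% and 27.2% of all genes. Those that fell include the chains of the IL-2 receptor Il2ra (-0.74) and Il2rb (-0.45), while the shared chain Il2rg did not pass (0.06, adjusted p = 0.374). Il18r1, for the inflammatory cytokine IL-18, changed by -1.31. Of 38 apoptosis and p53 genes, 13 fell and 8 rose, a share near the 54.8% of all genes that passed. Bcl2, the survival factor, was at 42.5, 51.6 and 67.0 TMM CPM with saline, 51.0, 51.4 and 45.7 with 5 mg/kg CSA and 20.5, 18.8 and 17.6 with 50 mg/kg CSA (log2 change -1.53, adjusted p = 9.97e-09).

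Changes in C2 also followed transcript length. Of the 9386 genes tested, 9318 had a GENCODE M21 transcript, and in quintiles by the longest transcript the median log2 change at 5 mg/kg went from 0.37 in the shortest quintile (up to 1881 bases) to -0.42 in the longest (5166 bases and over), and at 50 mg/kg from 0.49 to -0.60. The 10 largest falls at 5 mg/kg, which were those of Itga4, Macf1, Igf2r, Gm26917, Sytl2, Actr2, Foxn2, Lnpep, Fryl and Ahnak, had longest transcripts of 3329 bases (Gm26917) and over. Relative to the median of their own quintile, the medians at 50 mg/kg were -2.01 for inhibitory receptors, -1.58 for histones and 0.29 for G2/M genes. They were lower than before for ribosomal proteins (0.33 from 0.77), OXPHOS genes (0.24 from 0.68) and proteasome subunits (0.05 from 0.36), and turned negative for cytotoxic genes (-0.28 from 0.21), glycolysis (-0.20 from 0.05) and the mitochondrial genome (-0.48 from 0.0073). The part of length in the single results was not tested.

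Whether a change was particular to C2 was tested as the difference of its change from that in the other CD8+ cells of the same pools, in 1 edgeR fit with pool as a block. Of 10240 genes, 1813 differed at 5 mg/kg (17.7%; 818 more positive in C2, 7.99%, and 995 more negative, 9.72%) and 2733 at 50 mg/kg (26.7%; 1149, 11.2%, and 1584, 15.5%). Without TMM the split turned to 1466 more positive and 586 more negative, and 2130 and 813. The other cells changed in make-up, since the share of C4 fell with dose, and against single clusters the counts were lower: 406 more positive and 91 more negative against C1 and 61 and 81 against C3 (1.55%) at 5 mg/kg, and 730 and 243 against C1 and 284 and 297 against C3 (6.35%) at 50 mg/kg.

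S phase and G2/M genes fell less, or rose more, in C2 than in the other CD8+ cells. Clusters were drawn on the same RNA, so the level of cycle genes in C2 was partly set by membership at every dose. The share of C4, a cycling cluster, among the other cells fell with dose as well. The differences of cycle genes are therefore a description, and their adjusted p do not measure an effect apart from membership. All 64 S phase genes were more positive in C2 than in the other CD8+ cells at 50 mg/kg (median difference 1.55), and against C3, which is also cycling, 40 were more positive and none more negative (median 0.74 beside -0.0031 over all genes). At 5 mg/kg none of the 64 differed from C3. Of 71 G2/M genes, 49 were more positive than in C3 at 50 mg/kg and 1 more negative, and of 39 histone genes 29 and none (median 1.97). The largest differences from the other CD8+ cells at 50 mg/kg were those of Esco2 (3.77), E2f8 (3.76), Hist1h2ak (3.68), Fbxo5 (3.50) and Clspn (3.43), with adjusted p from 8.37e-21 to 4.18e-17. Mki67, though it fell in C2, fell less than in C3, by a difference of 1.02 (adjusted p = 1.67e-12).

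Of 21 inhibitory receptor and exhaustion genes, 1 was more positive and 6 were more negative in C2 than in the other CD8+ cells at 50 mg/kg, and none and 4 against C1. Against C3, 1 of 20 was more negative and none more positive, a share near the 6.35% of all genes, with a median difference of -0.0011. For Tox the difference from C3 was 0.41 (adjusted p = 0.532), for Pdcd1 0.37 (adjusted p = 0.226) and for Cd226 -0.05 (adjusted p = 0.906). A p above the threshold does not show that the changes were equal. Ifitm1 was the most negative in C2 at 50 mg/kg, by -2.79 against the other cells and -1.06 against C3 (adjusted p = 2.26e-10 and 0.0261), followed by Ifitm3 (-1.60), Fcer1g (-1.60), Serpina3g (-1.25) and Klk8 (-1.11) against the other cells. For ribosomal proteins the sign depended on the cells compared: 79 of 81 rose less in C2 than in the other CD8+ cells and 77 rose less than in C3, but 71 rose more than in C1. OXPHOS genes did likewise, with 65 of 89 more negative against the other cells, 31 of 88 against C3 and 49 of 88 more positive against C1.

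The clonotype of a cell is a readout apart from its RNA levels. A clonotype (paired alpha and beta CDR3, the loops that meet the antigen) was present for 2089 C2 cells (83.8%), which carried 1832 clonotypes, and 64 of these, with 127 C2 cells, were seen in CD8+ cells of more than 1 pool. The clonotypes with the most C2 cells in a pool are shown for saline and, for contrast, for CSA. In saline pool 2, 64 CD8+ cells carried 1 clonotype of TRAV16 and TRBV13-3, of which 13 were in C2 and 39 in C4. In saline pool 1, 60 cells carried a clonotype of TRAV6-6 and TRBV17, with 12 in C2 and 20 in C4. By the same ranking, those shown for CSA had 9 CD8+ cells at 5 mg/kg (TRAV12D-2 and TRBV13-3, 6 in C2 and none in C4) and 7 at 50 mg/kg (TRAV12-2 and TRBV19, 4 in C2 and none in C4). A clonotype of pool 3 at 50 mg/kg (TRAV4D-4 and TRBV29) also had 7 CD8+ cells, 4 in C2 and none in C4, and its sequence is not shown. Capitals mark the first and last codons of the CDR3, for the conserved cysteine and phenylalanine.
saline pool 2, alpha: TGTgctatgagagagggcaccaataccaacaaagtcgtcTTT
saline pool 2, beta: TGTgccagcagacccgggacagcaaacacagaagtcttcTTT
saline pool 1, alpha: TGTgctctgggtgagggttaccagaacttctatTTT
saline pool 1, beta: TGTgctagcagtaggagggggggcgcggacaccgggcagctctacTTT
CSA 5 mg/kg pool 2, alpha: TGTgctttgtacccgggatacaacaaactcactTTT
CSA 5 mg/kg pool 2, beta: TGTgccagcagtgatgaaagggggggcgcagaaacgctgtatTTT
CSA 50 mg/kg pool 1, alpha: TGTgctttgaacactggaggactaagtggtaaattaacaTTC
CSA 50 mg/kg pool 1, beta: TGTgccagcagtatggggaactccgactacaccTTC
Cells of both saline clonotypes were also found in C3 (6 and 13) and C0 (2 and 10).

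The clonality of C2 fell with CSA. Simpson's index, the chance that 2 cells drawn from C2 of a pool share a clonotype, was 0.00584, 0.00492 and 0.00271 with saline, 0.00266, 0.00215 and 0.000672 with 5 mg/kg CSA and 0.000784, 0.000566 and 0.000723 with 50 mg/kg CSA. The saline pools lay above those at 50 mg/kg without overlap, and the lowest pool at 5 mg/kg lay within the range at 50 mg/kg. The exact two-sided permutation test of the trend gave p = 0.00952 (adjusted over 7 clonotype measures, 0.0222). The share of C2 cells in expanded clonotypes, those seen in 2 or more CD8+ cells of the pool, was 43.8, 41.9 and 46.2% with saline, 29.7, 30.8 and 22.7% with 5 mg/kg CSA and 34.9, 22.0 and 31.6% with 50 mg/kg CSA, and no CSA pool reached the saline range, but the trend did not pass (exact permutation test, p = 0.123, adjusted 0.172). Clonotype sizes depend on how many cells of a pool were captured, and the pools held 158 to 316 C2 cells with a clonotype. The other CD8+ cells with a clonotype, which also count toward expansion, numbered 946 to 1064 in a saline pool, 407 to 576 at 5 mg/kg and 766 to 829 at 50 mg/kg. The part of these numbers in the share of expanded cells was not tested.

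C2 cells shared clonotypes with C4, C3 and C0 more often in saline than in CSA recipients. The clonotype of a C2 cell was also found in C4 of the pool for 30.9, 24.3 and 26.0% of cells with saline, 3.16, 3.74 and 1.62% with 5 mg/kg CSA and 0.388, 1.35 and 0% with 50 mg/kg CSA (exact permutation test of the trend, p = 0.00119, the smallest it can give, adjusted 0.00833). C4 held 275 to 311 cells with a clonotype in a saline pool, 12 to 18 at 5 mg/kg and 6 or 7 at 50 mg/kg, so its size moved with this share, and its part in the result was not tested. Seen from C4, the share of its cells with a clonotype also in C2 was 29.6 ± 4.27% with saline, 16.7% of the 12 or 18 cells in each of the 3 pools with 5 mg/kg CSA and 10.3 ± 9.01% with 50 mg/kg CSA (SD, n = 3 pools; exact permutation test, p = 0.00476, adjusted 0.0167). C3 held 176 to 194 cells with a clonotype in a saline pool, 85 to 141 at 5 mg/kg and 161 to 289 at 50 mg/kg, and sharing with it fell from 22.1 ± 2.64% to 11.7 ± 2.04% and 10.2 ± 4.70% (exact permutation test, p = 0.0214, adjusted 0.0375). Sharing with C0 was 20.8 ± 0.762% with saline, 1.32 ± 0.630% with 5 mg/kg CSA and 4.83 ± 1.88% with 50 mg/kg CSA (SD, n = 3 pools), so that neither dose overlapped with saline, and each exact permutation test gave p = 0.1, the smallest possible, but it was lowest at 5 mg/kg and the trend did not pass (adjusted p = 0.453). C0 held 223 to 259 cells with a clonotype in a saline pool, 45 to 55 at 5 mg/kg and 103 to 199 at 50 mg/kg, and the part of these numbers in the result was not tested. Sharing with C1 was 13.5 ± 3.97%, 4.33 ± 0.470% and 10.8 ± 2.82% (exact permutation test of the trend, adjusted p = 0.668). C1 held 73 to 111, 119 to 160 and 227 to 259 cells with a clonotype in a pool by dose.

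**Figure D5:**
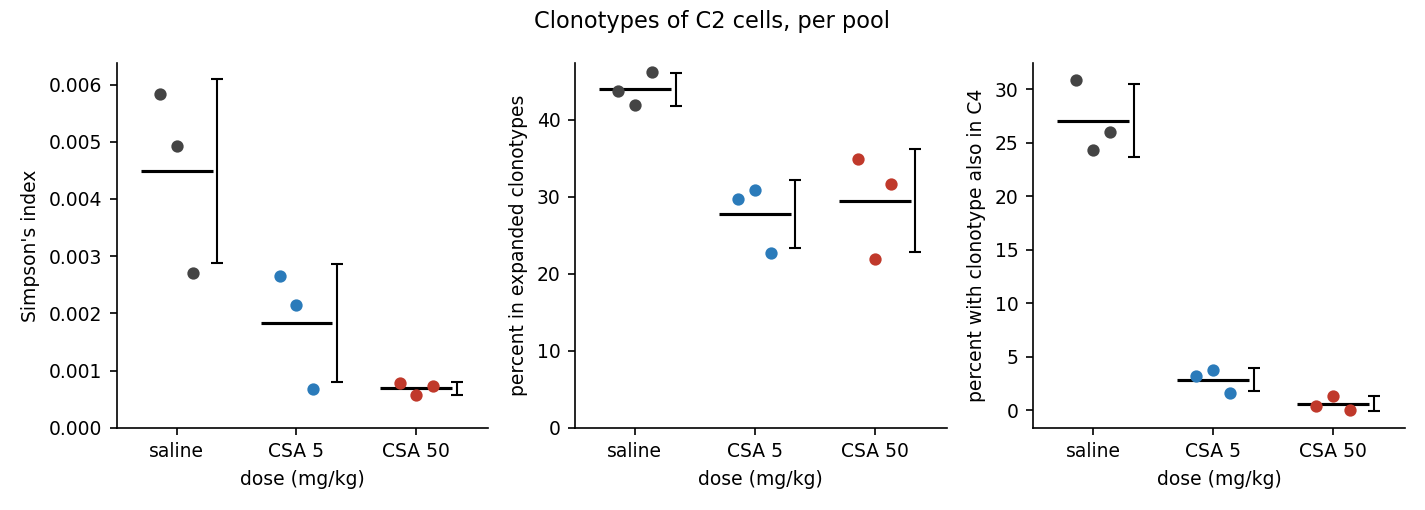
Simpson's index of C2 (left), percent of C2 cells in expanded clonotypes (middle) and percent of C2 cells whose clonotype was also in C4 of the same pool (right), 1 point per pool with a bar at the mean and error bars of 1 SD (n = 3 pools). The 3 saline pools are at 24.3% to 30.9% in the right panel and every CSA pool is below 4%.

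C2 was more clonal than C0 and C1. By exact paired permutation tests over 9 pools, with adjustment over 8 comparisons that were chosen after the data had been seen, its Simpson's index was above that of C0 in 7 of 9 pools (mean difference 0.00164, adjusted p = 0.0469) and above that of C1 in 7 of 9 (0.00139, adjusted p = 0.0417), and its share of expanded cells was above C0 in 9 of 9 pools (12.6 percentage points, adjusted p = 0.0313) and above C1 in 8 of 9 (11.0 points, adjusted p = 0.0313). Against C3 neither measure passed (adjusted p = 0.379 and 0.953 in the exact permutation test), with mean differences of 0.000420 ± 0.00127 and 0.115 ± 5.22 points (SD, n = 9 pools). Against C4, which had enough cells only in the saline pools, C2 was lower in 3 of 3 for both measures, and the exact permutation test cannot go below p = 0.25 there.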

How the data were processed

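Donor T cells from 9 pools were profiled with a 10x 5' assay with hashtag antibodies and TCR libraries. The authors deposited raw UMI counts per gene and cell (Cell Ranger, version not given in the sources used here, and Seurat 3.0.0, build mm10, per the submitters' processing notes) and a table of cells with pool, cluster, clonotype, antibody counts and the fraction of mitochondrial UMIs. Its cells had been filtered, clustered and cleared of doublets by the authors, and settings were not all stated. The cluster value of C2 was found by matching cell numbers per group to those of C2 in the study. The members, gene lists and tests were chosen with earlier results of these data known.

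Counts were summed over C2 cells per pool and tested in 1 fit of 9 pools with edgeR 4.0.16 (filterByExpr, TMM, quasi-likelihood test, R 4.3.3), p-values adjusted by Benjamini-Hochberg and called under 0.05. Scripts were tested on simulated data. Differences between C2 and other cells used the same pools as a block. Shares and clonotype measures were tested with an exact two-sided Jonckheere-Terpstra permutation test over 1680 assignments. Genes named were, per comparison, the 10 largest rises and falls among genes of at least 50 CPM whose pools did not overlap, without TCR and immunoglobulin segments, up to 4 per list, list members of known role, the 5 largest differences from other cells each way, the study's dot plot genes and the 20 genes highest over other cells. Alternatives were DESeq2 1.42.0, no filter, no TMM, fewer groups or cells, a replicate block and leaving out each pool. Cells of 6000 to 10000 UMIs, cells outside C4, beta chains alone and the comparison of clonality between clusters were added after the data had been seen. Locations are from GENCODE M21 and promoters from RefSeq (GRCm38.p6), both of the mm10 assembly. CD4+ cells were not analysed here. Some genes that the rules name are not reported here.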

Additional observations from a re-analysis of the deposited data

Results flagged for a closer look

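The change in C2 differed from that in the other CD8+ cells, by an edgeR interaction term (quasi-likelihood test, Benjamini-Hochberg adjusted), for 1813 genes at 5 mg/kg and 2733 genes at 50 mg/kg. At 5 mg/kg the changes most positive in C2 were those of Esco2 (2.14 on the log2 scale), Fbxo5 (2.05), Shcbp1 (1.92), Rrm2 (1.90) and Mxd3 (1.82), all genes of dividing cells. The most negative were those of Ifi27l2a (-1.20), Hscb (-1.16), Ifitm1 (-1.11), Tsc22d3 (-1.02) and Ccl5 (-1.01). Ifitm1 and Ccl5 rose in C2 at this dose, and rose more in the other cells. At 50 mg/kg the most positive were Esco2 (3.77), E2f8 (3.76), Hist1h2ak (3.68), Fbxo5 (3.50) and Clspn (3.43), and the most negative Ifitm1 (-2.79), Ifitm3 (-1.60), Fcer1g (-1.60), Serpina3g (-1.25) and Klk8 (-1.11). The share of C4, a cycling cluster, among the other cells fell with dose beside these differences, and its part in them was not tested beyond the comparisons with C1 and C3 alone. Clusters were drawn on the same RNA, so the differences of genes of dividing cells were partly set by membership of C2.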

How the results depend on the processing

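Calls in C2 numbered 1051, 2137 and 469 genes at 5 mg/kg, 50 mg/kg and between the doses in cells of 6000 to 10000 UMIs, which leaves fewer cells and genes, and 2262 and 1067 at 5 mg/kg and between the doses with DESeq2. Leaving out 1 pool gave 2869 to 3710, 4527 to 5191 and 1384 to 1965 genes. Genes whose change differed from other cells numbered 497 and 973 against C1 alone and 142 and 581 against C3 alone, and 1362 to 1863 and 2251 to 2718 without 1 pool. The numbers of the pools did not pair them (correlations of deviations from -0.0494 to 0.0560), and with the replicate block the counts were 3524, 5121 and 2000. The trend of the share of C2 did not pass under any alternative run (7.51 percentage points between 50 mg/kg and saline, 6.21 to 9.12 without 1 pool, 2.85 outside C4 and 22.7 among cycling cells), the trends of Simpson's index and of sharing with C4 passed under all of them (-0.00469 to -0.00312, and -27.9 to -24.6 points without 1 pool), and that of expanded cells under none (-17.2 to -10.7 points). Of 96 named gene changes that passed, 85 kept their direction and call under all alternatives. Ccnb1 at 50 mg/kg was reversed in cells of 6000 to 10000 UMIs (-0.56), Gzmb there (-0.0090) and without TMM (-0.015), and Eomes without TMM (-0.074), and the cause was not tested. Counts of genes without filter, with fewer groups, without TMM, in cells of at least 2000 UMIs and without cells of 2 strong hashtags stayed within 1.5 times, though without TMM 616 were higher and 3647 lower at 5 mg/kg. With 3 pools a group and 1 capture per treatment, treatment and capture cannot be told apart.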
